A study of Mus musculus with 61 samples.

Results

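The comparison set 25 libraries of 9-month-old DBA/2J mice against 9 libraries of 9-month-old D2-Gpnmb+ mice, 34 of the 61 libraries in the series. The members were all columns of the deposited expression table whose names carry either strain at 9 months without nicotinamide. A comparison of ages also used 20 libraries of 4-month-old mice given water only, 10 of each strain. DBA/2J is an inbred mouse that develops an inherited pigmentary glaucoma and carries mutant alleles of Gpnmb and Tyrp1, and D2-Gpnmb+ is the same strain with a functional Gpnmb allele, so that the Tyrp1 allele is shared by both groups. All 34 libraries came from mice given water only. The RNA was labelled as that of retinal ganglion cells and came from retinal cells sorted as Thy1.2-positive and negative for Cd11b, Cd11c, Cd34, Cd45.2 and GFAP, from eyes in which no axon degeneration had been seen. The table does not tie its columns to single sample labels within a group, and the labels do not say whether each library came from its own mouse, so the p-values below measure the spread between libraries.

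Retinal ganglion cells send the axons of the optic nerve and are the cells lost in glaucoma. Gpnmb encodes a transmembrane glycoprotein of melanosomes and of phagocytic cells. In DBA/2J eyes, iris pigment is shed, intraocular pressure rises with age, and ganglion cell axons are later damaged, whereas a functional Gpnmb allele prevents most of the disease. Intraocular pressure is not given in the labels for any library.

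The 9-month columns fall into 3 runs in the deposited table. Block 1 held 6 DBA/2J and 4 D2-Gpnmb+ libraries, block 2 held 16 and 2, and block 3 held 3 and 3. What the blocks stand for is not given in the labels. Main results are therefore also given by block, whereas some genes and lists are given for block 1 only. Reads recovered from the normalised values ranged from 5133114 to 19501444 (median 10429091) in DBA/2J and from 7284988 to 14961078 (median 8886118) in D2-Gpnmb+ libraries.

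Markers of several other retinal cell types had higher summed values than ganglion cell markers, although sums over different marker sets do not measure a cell type's share of the RNA. The summed normalised value of the 23 ganglion cell markers in the table ranged from 58.8 to 351 in DBA/2J and from 85.7 to 360 in D2-Gpnmb+ libraries, whereas that of 18 bipolar cell markers ranged from 4363 to 18840 and from 4868 to 12890. Rod markers summed to between 1087 and 85660 and Müller glia markers to between 703.5 and 19370 over the 34 libraries, so the values describe the sorted mixture and not ganglion cells alone. In such bulk samples fewer cells of a type and less RNA per cell cannot be told apart. Among the control libraries, D2-Gpnmb+ library 1 (block 1) had a Gpnmb value of 11.9 where the other 8 lay between 38.9 and 83.5, and D2-Gpnmb+ library 8 (block 2) had a value of 7.93 for Xist, the RNA of the inactive X chromosome, where the other 33 libraries were at 4077 or above.

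Over 13755 tested genes, the pooled comparison gave few calls in limma, and within blocks only block 1 gave any. Pooled, 3 genes (0.0218%) had an adjusted p under 0.05 in limma, 1 higher and 2 lower in DBA/2J, whereas DESeq2 on recovered reads called 255, 148 higher and 107 lower. With the column block as a covariate 2 genes did (0.0145%), both lower. The pooled calls were absent in 23 of the 34 fits that left out 1 library, and the count ranged from 0 to 56. In block 1 alone, 1635 genes differed (11.9%), of which 614 were higher (4.46%) and 1021 lower (7.42%), and 1053 differed without D2-Gpnmb+ library 1. Block 2 and block 3 alone gave 0 genes each (0%) at an adjusted p under 0.05, in limma and in edgeR's quasi-likelihood test. At an unadjusted p under 0.05 limma had 760 genes (5.53%) in block 2 and 873 (6.35%) in block 3. These shares are not far above the 0.05 that such a threshold gives without any difference.

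The strain differences of block 1 recurred only in part. Across the 13755 genes, which are not independent replicates, Pearson's correlation of the log2 differences was -0.198 between blocks 1 and 2, 0.218 between blocks 1 and 3 and 0.072 between blocks 2 and 3. Of the 1021 genes lower in block 1, 81.59% were also lower in value in block 3, where 51.6% of all tested genes were lower, and 33.01% were lower in value in block 2, where 49.82% of all genes were. Of the 614 genes higher in block 1, 52.28% were higher in value in block 3 and 32.25% in block 2, where 48.32% and 50.18% of all genes were. A test of whether the strain difference depended on the block called 1 gene (0.00727%), Cacna1f, the calcium channel subunit of photoreceptor and bipolar cell terminals, with an adjusted p of 0.0474. It remained called in 16 of the 34 fits that left out 1 library, and was not called when values were scaled to total reads. Cacna1f ranged from 225 to 353 (median 288) in DBA/2J libraries of block 1 against 96.2, 113, 125 and 151 in the controls, without overlap, and its log2 differences were 1.24 ± 0.17 (SE) in block 1, -0.03 ± 0.22 in block 2 and -0.19 ± 0.16 in block 3.

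**Figure D1:**
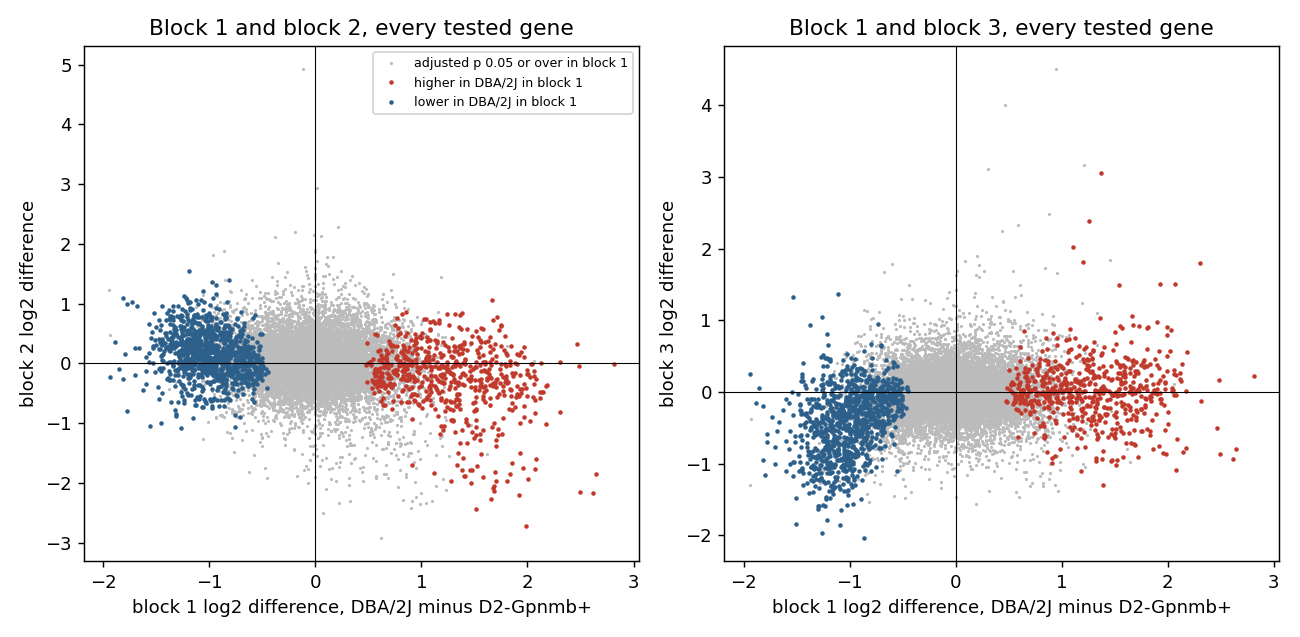
Log2 differences (DBA/2J minus D2-Gpnmb+) of every tested gene in block 1 (x axis) against block 2 (left) and block 3 (right), with the 614 genes higher in block 1 in red and the 1021 lower in blue. The blue genes lie mostly below 0 in block 3 (81.59%) and mostly above it in block 2, where 33.01% were lower.

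Without block 2, the strains differed at 7.59% of the tested genes, with 313 genes higher (2.28%) and 731 lower (5.31%) in DBA/2J. This fit held 9 DBA/2J and 7 D2-Gpnmb+ libraries with the block as a covariate. Scaled to total reads it called 425 genes higher and 421 lower, the number called was 584 without D2-Gpnmb+ library 1 and 651 without D2-Gpnmb+ library 4, and without both D2-Gpnmb+ library 1 and DBA/2J library 26, the shallowest library, 492 genes were called.

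Of the 13755 genes, 48 (0.349%) had a mean value of at least 5 over all libraries of the higher group and differed in value in the same direction by at least 0.5 log2 in each of the 3 blocks, 10 higher and 38 lower in DBA/2J. Whatever their mean, 3956, 2823 and 2048 genes differed by that size in blocks 1, 2 and 3. The same sign in all 3 blocks was held by 23.88% of all tested genes, no more than signs unrelated between the blocks would give. How many genes unrelated differences would place among the 48 was not computed. Genes named for this agreement were picked on the same values, so the agreement is no separate support. Gpnmb itself, on chromosome 6 (GRCm38, 49036546 to 49070929, plus strand), was among the 38 lower ones. Its values ranged from 8.39 to 31.8 (median 19) in DBA/2J libraries of block 1 against 11.9, 38.9, 43.8 and 44.3 in controls. In block 2 they ranged from 19.1 to 78.3 (median 36.4) against 41.1 and 83.5. In block 3 they were 18.6, 26.5 and 31.8 against 65.4, 77.9 and 80.8. The groups were apart in block 3 and overlapped in the others, in block 1 through control library 1, and the log2 differences were -0.82 ± 0.35 (SE), -0.75 ± 0.41 and -1.53 ± 0.21. In the fit on blocks 1 and 3 the adjusted p of Gpnmb was 0.0202, and over all 3 blocks with the block as a covariate it was 0.155.

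Klhl29, a kelch-like family gene on chromosome 12, stood among the genes higher in DBA/2J throughout. In block 1 its DBA/2J values ranged from 5.32 to 17.5 (median 11.1) against 2.04, 3.13, 4.29 and 5.71 in controls. In block 2 they ranged from 3.62 to 16.8 (median 10.7) against 5.44 and 5.59. In block 3 they were 12.1, 16.3 and 91.1 against 4.07, 4.35 and 4.49. Only in block 3 did the groups not overlap, and the highest value came from DBA/2J library 26. The log2 difference was 1.36 ± 0.29 (SE) with the block as a covariate, with an adjusted p of 0.146, and 1.69 ± 0.34 on blocks 1 and 3, with an adjusted p of 0.0042.

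Ptp4a3, a protein tyrosine phosphatase, was higher by 0.82 ± 0.21 (SE) log2 units in block 1, by 0.82 ± 0.32 in block 2 and by 0.57 ± 0.26 in block 3. In block 3 the DBA/2J values of 48.6, 71.0 and 104 overlapped control values of 39.2, 49.5 and 55.9. Lcn2, which encodes the secreted iron-carrier protein lipocalin 2, ranged from 3.41 to 13.4 (median 7.31) in DBA/2J libraries of block 1 against 0.197, 0.905, 1.75 and 5.87 in controls. Its log2 differences were 1.66 ± 0.45, 1.07 ± 0.65 and 1.07 ± 0.42 in the 3 blocks, and its adjusted p was 0.0161 in block 1.

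Edn2, the ligand endothelin 2 of the endothelin receptors, was near 0 in controls and exceeded every one of the 9 control libraries in 18 of the 25 DBA/2J libraries. Genes were tested if they reached a value of 1 in 9 or more of the 34 libraries, which no control library did for Edn2. It was thus tested only through its DBA/2J values, and its excess and adjusted p values are not independent of that filter. In block 1 its DBA/2J values ranged from 0.162 to 2.43 (median 1.43) against 0, 0, 0 and 0.0985 in controls. In block 2 they ranged from 0 to 5.46 (median 1.65) against 0.311 and 0.585. In block 3 they were 1.79, 2.43 and 23.5 against 0.128, 0.678 and 0.863. The groups did not overlap in blocks 1 and 3 and overlapped in block 2. Edn2 was higher by 1.23 ± 0.32 (SE) on the log2(value + 1) scale with the block as a covariate, which at these levels understates the fold, with an adjusted p of 0.155, and by 1.46 ± 0.35 on blocks 1 and 3, with an adjusted p of 0.0128. At 4 months Edn2 was at or under 0.862 in every one of 20 libraries, with medians of 0.114 in DBA/2J and 0 in D2-Gpnmb+.

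Pax6, Cnksr2 and Cnr1 were among the genes lower in value in every block. Pax6, a transcription factor of amacrine and ganglion cells and of retinal progenitors on chromosome 2, ranged from 24.2 to 59.1 (median 46.7) in DBA/2J libraries of block 1 against 92.7, 108, 113 and 138 in controls, without overlap. In block 2 it ranged from 14 to 92.1 (median 43.6) against 46.2 and 114, and in block 3 it was 22.9, 27.6 and 62.5 against 51.0, 65.4 and 82.9, with overlap in both. Its log2 differences were -1.33 ± 0.21 (SE), -0.77 ± 0.54 and -0.91 ± 0.34, and its adjusted p was 4.36e-04 in block 1 and 0.00138 on blocks 1 and 3. Cnksr2, a scaffold protein of postsynaptic densities, had differences of -1.27 ± 0.28, -1.08 ± 0.58 and -0.84 ± 0.31, and Cnr1, the cannabinoid receptor CB1, of -1.46 ± 0.34, -0.99 ± 0.71 and -1.09 ± 0.55. Cnksr2 and Cnr1 passed the threshold in block 1 and on blocks 1 and 3, with adjusted p values of 0.00561 and 0.00966 in the latter fit.

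Dio2, the deiodinase that activates thyroid hormone, and Slc35f1, a solute carrier family member, were lower too. In block 1 Dio2 ranged from 20.3 to 105 (median 68.6) in DBA/2J libraries against 177, 216, 217 and 244 in controls, without overlap. Slc35f1 was apart in block 3, at 11.8, 16 and 27.1 against 32.3, 34.3 and 36.3, and overlapped in blocks 1 and 2. The log2 differences of Dio2 were -1.78 ± 0.31 (SE), -0.80 ± 0.40 and -0.70 ± 0.39, and those of Slc35f1 were -0.81 ± 0.23, -0.61 ± 0.39 and -0.95 ± 0.27. On blocks 1 and 3 the adjusted p was 0.0154 for Dio2 and 0.00523 for Slc35f1. Pag1, an adaptor of Src family kinases, had differences of -1.12 ± 0.18, -0.56 ± 0.25 and -0.32 ± 0.17, and its values of 44.8, 45.7 and 46.2 in block 3 lay below all 3 controls at 49, 59.1 and 64.0.

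**Figure D2:**
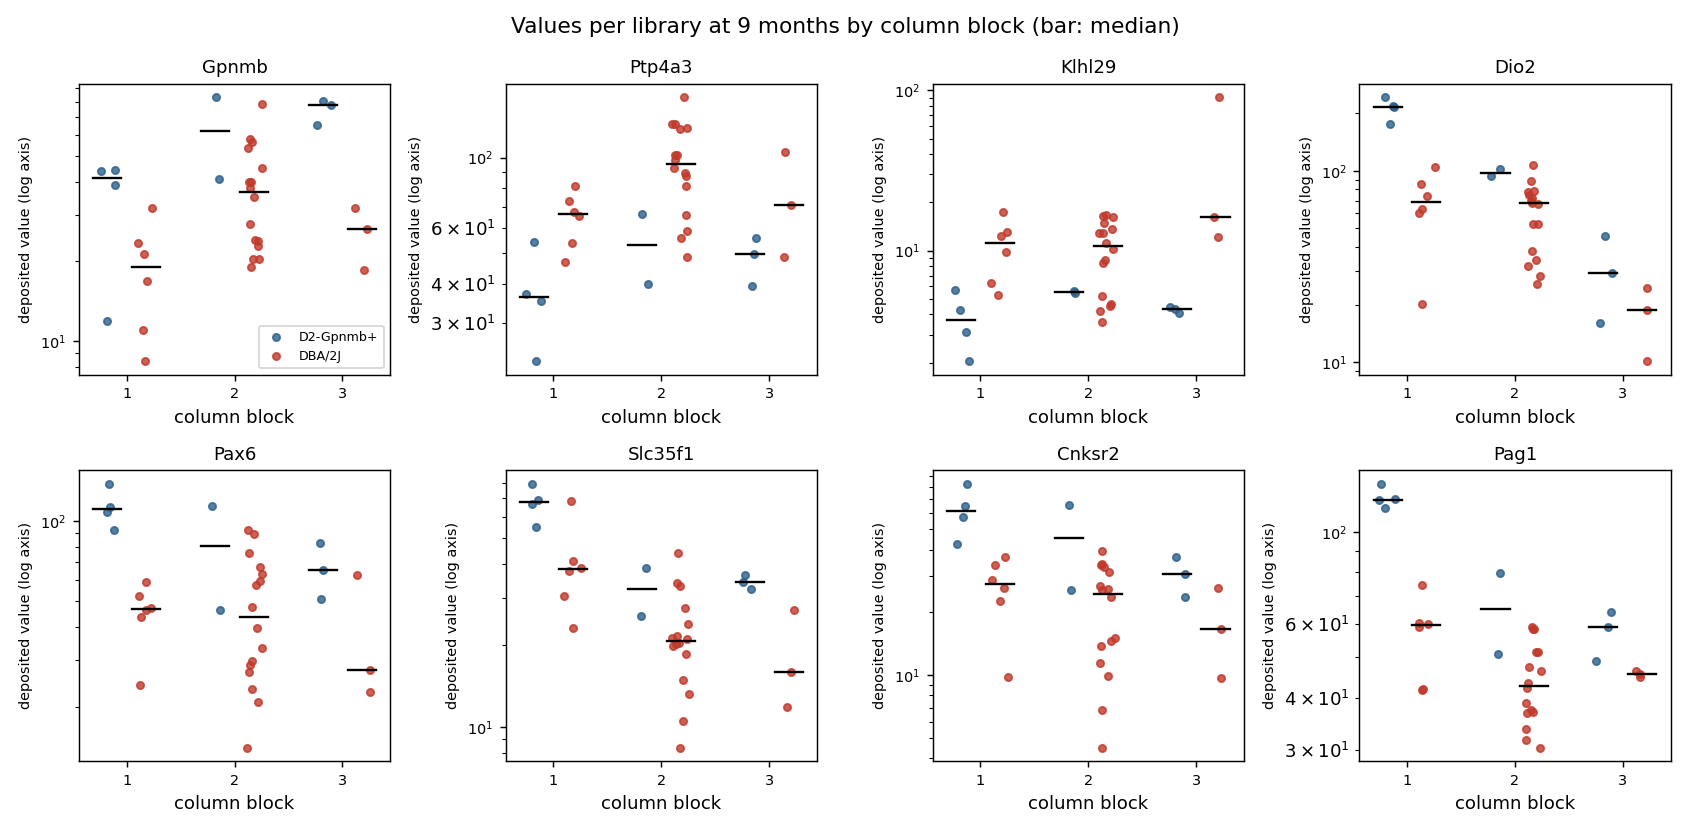
Normalised value (log axis) of 8 genes in each 9-month library, by column block and strain, with a bar at the group's median. The DBA/2J points of Ptp4a3 and Klhl29 have the higher median in each block and those of the other 6 genes the lower, with the groups overlapping in block 2.

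Photoreceptor genes rose together in block 1. No member was called in the other blocks, where no tested gene was called. Photoreceptors detect light through a cascade of opsin, transducin, phosphodiesterase and a cyclic nucleotide-gated channel, and their gene expression is driven in part by the homeobox factor Crx, whose binding sites hold the letters TAATCC. Of 20 rod markers, 17 were higher in DBA/2J in block 1 and 0 lower, where 4.46% and 7.42% of all tested genes were. Their median log2 difference was 1.81, beside -0.04 over all tested genes. Of 12 cone markers 10 were higher and 0 lower, with a median of 1.47. The rod median was 0.09 in block 2 and 0.07 in block 3, and the cone median -0.39 in both, with 0 members called; whether the members differed between blocks was tested per gene, and Cacna1f, which is in neither list, was the only call. The rod median of block 1 was 1.3 without D2-Gpnmb+ library 1. In block 2 it was -0.67 without D2-Gpnmb+ library 8, 0.80 without D2-Gpnmb+ library 9 and -0.11 when scaled to total reads. On blocks 1 and 3 together 8 rod and 2 cone markers were higher and 0 lower, beside 2.28% and 5.31% of all tested genes. That fit holds the block 1 libraries, so these calls are no separate support.

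RefSeq promoters were at hand for 20 of these 32 genes, and 6 of them (30.0%) held TAATCC or its reverse complement GGATTA within 250 bases before to 50 after the start, beside 5.7% of the promoters of all tested genes. A match describes the letters only. The 250 bases before the start are printed for the 3 genes with a match there that had the largest difference in block 1, in the direction of transcription on GRCm38.p6, with the match in capitals.
Gngt1, chr6:3993758-3994007, strand +: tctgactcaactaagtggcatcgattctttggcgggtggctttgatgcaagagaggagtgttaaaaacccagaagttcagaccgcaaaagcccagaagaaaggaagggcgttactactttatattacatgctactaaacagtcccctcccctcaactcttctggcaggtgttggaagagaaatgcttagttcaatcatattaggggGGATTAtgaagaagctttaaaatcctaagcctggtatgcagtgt
Cnga1, chr5:72642753-72643002, strand -: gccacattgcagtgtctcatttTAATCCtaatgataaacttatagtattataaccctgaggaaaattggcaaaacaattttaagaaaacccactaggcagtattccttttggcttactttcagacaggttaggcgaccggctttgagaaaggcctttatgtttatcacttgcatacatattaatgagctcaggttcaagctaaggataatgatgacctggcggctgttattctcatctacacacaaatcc
Sag, chr1:87803430-87803679, strand +: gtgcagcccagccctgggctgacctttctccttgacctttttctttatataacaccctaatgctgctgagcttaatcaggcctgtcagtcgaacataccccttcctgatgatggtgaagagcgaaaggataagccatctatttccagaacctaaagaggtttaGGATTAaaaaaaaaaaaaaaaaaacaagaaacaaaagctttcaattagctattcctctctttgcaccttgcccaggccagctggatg

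Gngt1, the rod transducin gamma subunit, ranged from 80.4 to 226 (median 123) in DBA/2J libraries of block 1 against 8.97, 23.4, 25.1 and 54.3 in controls. Cnga1, the alpha subunit of the rod channel, ranged from 89.8 to 149 (median 104) against 12.3, 14.7, 32.1 and 64.1. Sag, the rod arrestin, ranged from 572 to 1197 (median 789) against 73.2, 210, 273 and 413. In these 3 genes the groups did not overlap, and the log2 differences were 2.46 ± 0.38 (SE), 2.12 ± 0.32 and 1.97 ± 0.35, with adjusted p values of 6.62e-04, 4.46e-04 and 0.00178. In block 3 the same genes differed by -0.51 ± 0.28, 0.26 ± 0.15 and 0.04 ± 0.17.

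Among cone genes, Opn1sw, the short-wavelength opsin, ranged from 293 to 640 (median 520) in DBA/2J libraries of block 1 against 63.4, 98.6, 130 and 211 in controls, without overlap. In block 3 its direction was the opposite in value, at 114, 550 and 607 against a lowest control value of 604 and a middle one of 609, with overlap. The differences were 2.08 ± 0.26 (SE) in block 1, with an adjusted p of 1.21e-04, and -1.09 ± 0.65 in block 3. Pde6c, the cone phosphodiesterase, differed by 1.85 ± 0.21 in block 1 and by -0.01 ± 0.25 in block 3. Of 34 tested genes of synaptic vesicle release 9 were higher and 2 lower in block 1, beside 4.46% and 7.42% of all tested genes. Their median was 0.40. Cplx4, a complexin of photoreceptor and bipolar ribbon synapses, differed by 1.99 ± 0.26 there with an adjusted p of 1.46e-04. The summed rod markers moved with these calls: they ranged from 9444 to 13600 in DBA/2J and from 1087 to 8764 in control libraries of block 1, and their part in the calls of other genes was not tested.

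Most Müller glia markers fell in DBA/2J in block 1, and 0 were called in block 3 alone, where no tested gene was called. Müller glia are the radial support cells of the retina, which clear glutamate and potassium and recycle visual pigment. Of 23 tested Müller glia markers, 20 were lower and 0 higher in block 1, beside 7.42% and 4.46% of all tested genes. Their median log2 difference was -1.08 in block 1. In block 3 the median was -1.10 with 19 of 23 lower in value and 0 called. On blocks 1 and 3 together 14 were lower and 0 higher, beside 5.31% and 2.28% of all tested genes, with all 23 lower in value. In block 2 the median was 0.32 and 20 of 23 were higher in value, with 0 called. Scaled to total reads, the median was -1.09 in block 1, 0.13 in block 2 and -0.90 in block 3, and without DBA/2J library 26 the block 3 median was -0.52.

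Glul, the glutamine synthetase that turns glutamate to glutamine, ranged from 1991 to 3832 (median 3059) in DBA/2J libraries of block 1 against 5554, 6617, 7622 and 8024 in controls. In block 3 it was 88.2, 457 and 560 against 723, 997 and 1303. The groups did not overlap in either block, whereas in block 2 values from 412 to 2824 (median 1475) enclosed the controls at 862 and 1341. The differences were -1.21 ± 0.19 (SE) in block 1, with an adjusted p of 4.05e-04, -1.79 ± 0.69 in block 3 and 0.33 ± 0.51 in block 2, and on blocks 1 and 3 the adjusted p was 0.0114. Sox9, a transcription factor of Müller glia, was 7.95, 18.1 and 19.2 in DBA/2J libraries of block 3 against 22, 30.9 and 32.3 in controls, without overlap, and differed by -1.03 ± 0.16 on blocks 1 and 3 with an adjusted p of 9.78e-04. Nfia, a transcription factor that drives glial fate, was likewise apart in both blocks and differed by -0.83 ± 0.15 in block 1 and -1.01 ± 0.19 in block 3, with an adjusted p of 6.74e-04 on the pair of blocks.

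The summed Müller glia markers give the same contrast per library. In block 1 they ranged from 4843 to 10270 in DBA/2J and from 13770 to 19370 in controls, without overlap, and in block 3 from 703.5 to 2291 and from 2125 to 3820, with overlap. DBA/2J library 26 held the lowest sum. The mean level also differed between blocks within a strain, with control medians of 18630, 3936 and 3253 in blocks 1, 2 and 3.

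**Figure D3:**
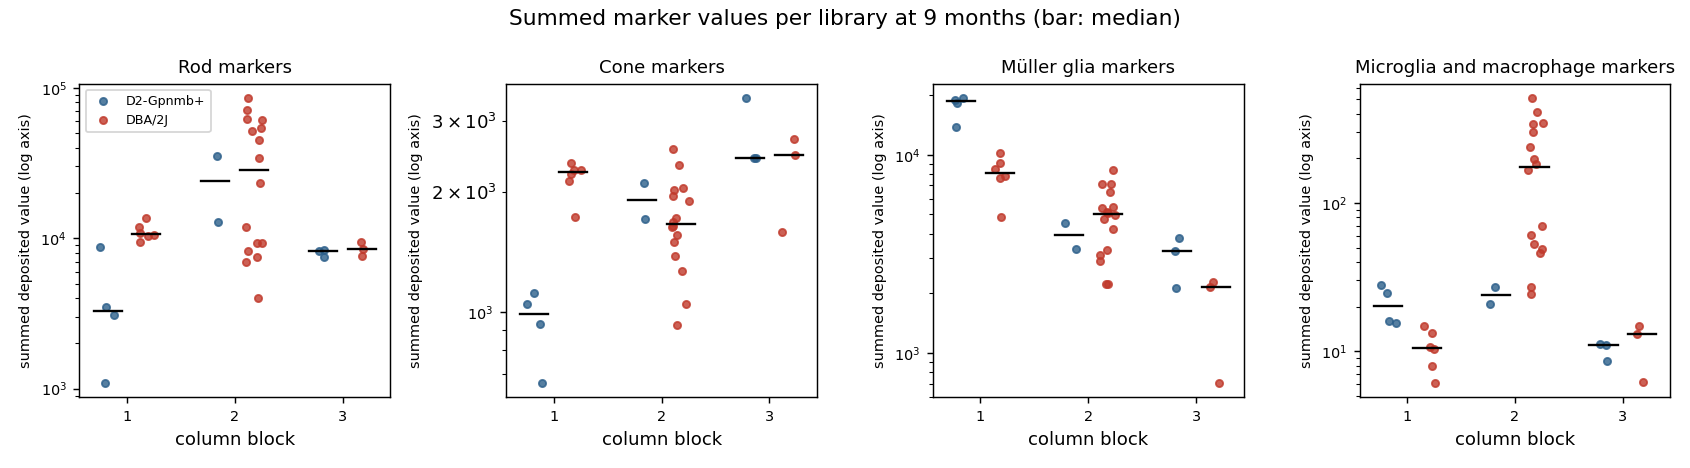
Summed normalised values (log axis) of rod, cone, Müller glia and microglia or macrophage markers per 9-month library, by column block and strain, with a bar at the group's median. Rod sums are apart in block 1 only, at 9444 to 13600 in DBA/2J against 1087 to 8764. Microglia sums in block 2 range from 24.4 to 510.8 in DBA/2J, against at most 27 in controls.

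Some members of other gene groups fell in block 1, where 7.42% of all tested genes did. Of 42 tested genes of extracellular matrix and integrins, 16 were lower and 2 higher, with a median of -0.28. Timp3, an inhibitor of matrix metalloproteinases, Sparc, a matrix-binding protein, and Hspg2, the basement membrane proteoglycan perlecan, differed by -1.17 ± 0.18, -1.18 ± 0.19 and -1.05 ± 0.20 (SE), with adjusted p values of 4.36e-04, 4.36e-04 and 0.00142, and all 3 had an adjusted p under 0.05 on blocks 1 and 3. Of 34 genes of cholesterol and fatty acid synthesis, 9 were lower and 0 higher, with a median of -0.45. Sqle, squalene epoxidase, was 17.3, 18.7 and 19.9 in DBA/2J libraries of block 3 against 23, 26.2 and 33.3 in controls, without overlap, and differed by -1.18 ± 0.22 in block 1 and -0.92 ± 0.17 on blocks 1 and 3, with an adjusted p of 0.00193 in the latter.

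Of 30 tested genes of amino acid transport and mTOR sensing, 9 were lower and 0 higher in block 1. Among all tested genes 7.42% were lower there and 4.46% higher. The lower ones of the list included Slc7a11, the cystine transporter, at -0.96 ± 0.18 (SE). Slc1a3, the glutamate transporter GLAST and itself a Müller glia marker, was another, at -1.13 ± 0.22. Slc38a2, a glutamine and neutral amino acid transporter, had differences of -0.71 ± 0.16 in block 1, -0.89 ± 0.20 in block 2 and -0.03 ± 0.18 in block 3. Slc2a1, the glucose transporter GLUT1, ranged from 143 to 317 (median 213) in DBA/2J libraries of block 1 against 409, 443, 477 and 581 in controls, without overlap, and differed by -1.15 ± 0.18 in block 1 with an adjusted p of 4.36e-04 and by -0.83 ± 0.16 on blocks 1 and 3. Of 26 immediate early genes, which respond to cell activation and to tissue handling, 6 were lower and 0 higher in block 1, with a median of -0.50, whereas the medians were 0.38 and 0.28 in blocks 2 and 3. Dusp1, a phosphatase of that list, ranged from 25.7 to 57.2 (median 30.6) against 64.0, 81.4, 91.3 and 95.1 in block 1, without overlap.

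Markers of the labelled cell type did not move as a group. Of 20 tested ganglion cell markers, 2 were higher and 2 lower in block 1, beside 4.46% and 7.42% of all tested genes. The medians of these markers were 0.26, -0.43 and -0.24 in the 3 blocks. Thy1, the surface protein used for the sort, ranged from 10.7 to 33.5 (median 26) in DBA/2J libraries of block 1 against 41.2, 51.8, 80.5 and 81.0 in controls, without overlap, and differed by -1.34 ± 0.27 (SE) with an adjusted p of 0.00184. In block 3 Thy1 was 11.6, 11.8 and 23.2 against 16.7, 21.9 and 22.7, a difference of -0.43 ± 0.28, and on blocks 1 and 3 its adjusted p was 0.00909. Chrnb3, a nicotinic receptor subunit, differed by 1.98 ± 0.39 in block 1, -2.71 ± 1.31 in block 2 and -0.86 ± 0.44 in block 3.

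Lists of inner retinal neurons had calls in block 1 and 0 in blocks 2 and 3, where no tested gene was called. In block 1, 4.46% of all tested genes were higher and 7.42% lower, and some of the counts below lie near those shares. Amacrine and horizontal cell markers had medians of 0.09, -1.07 and -0.53, with 2 of 20 tested members higher and 3 lower in block 1, and the median in block 2 was -1.89 without D2-Gpnmb+ library 9 and -0.34 without D2-Gpnmb+ library 8. Pax6 was one of the 3 lower members. Neurotransmitter receptors had medians of 0.22, -0.76 and -0.32 over 41 tested genes, with 8 higher and 3 lower in block 1. Gria4, an AMPA receptor subunit, had the same sign throughout, at -0.75 ± 0.23 (SE), -0.86 ± 0.50 and -1.04 ± 0.38, whereas Gria2, another one, differed by 1.92 ± 0.23 in block 1, with an adjusted p of 1.21e-04, -2.19 ± 0.94 in block 2 and -0.75 ± 0.33 in block 3. Of 30 potassium channel genes 4 were higher and 3 lower in block 1, with medians of 0.52, -0.30 and -0.35 in the 3 blocks. Bipolar cell markers had medians of 0.11, -0.03 and -0.16, with 4 of 18 higher and 0 lower in block 1.

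**Figure D4:**
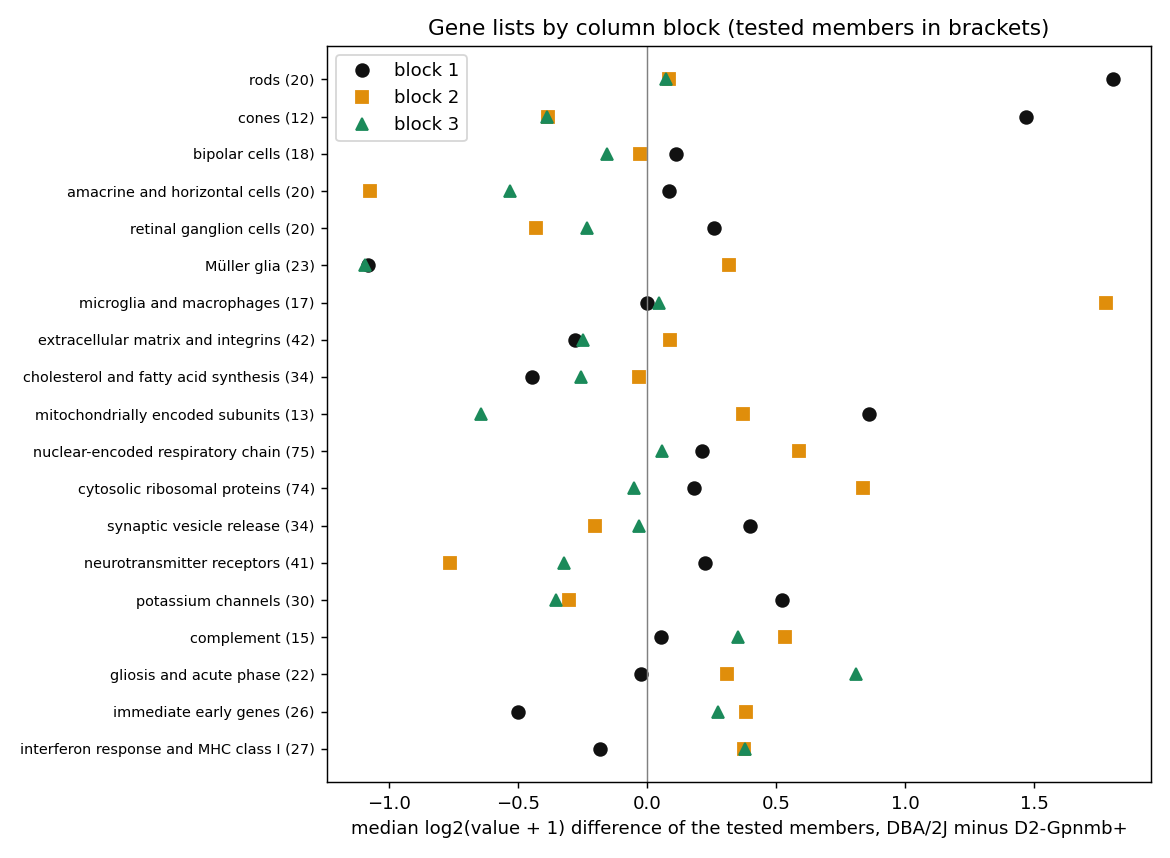
Median log2 difference (DBA/2J minus D2-Gpnmb+, x axis) of the tested members of 19 gene lists in block 1 (circles), block 2 (squares) and block 3 (triangles). Rods and cones stand apart in block 1 (1.81 and 1.47), microglia and macrophages in block 2 (1.78), and Müller glia lie near -1.1 in blocks 1 and 3.

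In block 2, where no tested gene was called, immune cell and ribosomal protein lists had medians above 0. Microglia are the resident macrophages of the retina. All 17 tested microglia and macrophage markers were higher in value in DBA/2J, with a median of 1.78 and 0 called, beside medians of 0 and 0.05 in blocks 1 and 3. Lyz2, the lysozyme of myeloid cells, ranged from 1.89 to 31.5 (median 10.8) in the 16 DBA/2J libraries against 0.389 and 0.455, and Ptprc, the leukocyte antigen CD45 whose Cd45.2 form was excluded in the sort, from 1.71 to 8.85 (median 3.59) against 0.311 and 0.520. The groups did not overlap in either gene, and the differences were 2.94 ± 0.66 (SE) and 1.78 ± 0.51, with adjusted p values of 0.376 and 0.553. The summed markers ranged from 24.4 to 510.8 in DBA/2J and from 20.9 to 27 in the 2 controls, which overlap. They split by column order within DBA/2J, from 165.6 to 510.8 in libraries 7 to 18 and from 24.4 to 69.8 in libraries 19 to 25. The sums of the later run thus lay nearer to the controls, and the cause of the split was not tested.

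Ribosomal protein genes were higher in value in 73 of 74 members in block 2, with a median of 0.84, beside 0.18 in block 1 and -0.05 in block 3, and without a call in block 2. Rpl35, a subunit of the large ribosomal particle, ranged from 14.8 to 50.9 (median 29.0) against 9.09 and 10.5, without overlap, at 1.44 ± 0.31 (SE) with an adjusted p of 0.376. Mpc1, a subunit of the mitochondrial pyruvate carrier, was higher in every block in value, at 0.24 ± 0.30, 1.55 ± 0.35 and 0.73 ± 0.31. In block 3 its DBA/2J values of 5.17, 6.38 and 8.73 lay above all 3 controls at 3.07, 3.80 and 3.97. Nuclear-encoded respiratory chain genes had medians of 0.21, 0.59 and 0.06 over 75 tested members, with 0 called in any block.

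The 13 mitochondrially encoded subunits had medians of different sign in the blocks, a difference that passed the test between blocks for no subunit. In block 1, 12 were higher and 0 lower, with a median of 0.86, where 4.46% and 7.42% of all tested genes were. All 13 were higher in value in block 2 and lower in value in block 3, with medians of 0.37 and -0.64. mt-Co3, a subunit of cytochrome c oxidase, ranged from 711 to 1426 (median 1066) in DBA/2J libraries of block 1 against 258, 356, 482 and 701, without overlap, and differed by 1.32 ± 0.24 (SE) with an adjusted p of 9.42e-04. In block 3 it was 1097, 1423 and 1716 against 1673, 2235 and 5388, a difference of -0.97 ± 0.39. The share of reads from ribosomal RNA moved the same way, counted over Rn45s, the precursor, and any mitochondrial ribosomal RNA rows. It was 18.2 to 30.5% against 11.2 to 19.5% in block 1 and 23.4 to 28.9% against 25.1 to 44.4% in block 3. Because this share can include mitochondrially encoded reads, it is not fully separate from the subunits, and its part was not tested.

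Block 3 also held 20 libraries of 4-month-old mice, 10 of each strain, so the strain difference could be compared between ages within it. The test called 10 genes (0.0727%), each with a larger DBA/2J excess at 9 months: Stat3, Dlx3, Slit3, Prph, Serpina3n, A2m, Nf2, Mpp6, Fam78b and Sec22c. Stat3 is the transcription factor of interleukin 6 family signalling, Serpina3n and A2m are acute phase protease inhibitors, Slit3 is an axon guidance ligand, and Prph is the intermediate filament peripherin of neurons. Dlx3 is a homeobox factor and Nf2 encodes merlin, a cytoskeletal tumour suppressor.

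Stat3 was 89.1, 163 and 223 in DBA/2J libraries of block 3 against 41.6, 45.6 and 49 in controls at 9 months, without overlap. At 4 months it ranged from 36.9 to 45.4 (median 39.4) against 26.5 to 58.5 (median 47.2). The strain difference was 1.69 ± 0.28 (SE) at 9 months and -0.17 ± 0.11 at 4 months, and the change was 1.85 ± 0.26 with an adjusted p of 8.96e-04. Serpina3n was 8.76, 30.0 and 235 against 0.256, 1.21 and 1.22, without overlap, and its change was 4.20 ± 0.73 with an adjusted p of 0.00967. Slit3 was 12.1, 37.2 and 96.2 against 2.81, 3.66 and 3.80, with a change of 3.16 ± 0.55 and an adjusted p of 0.00967, and A2m was 30.8, 76.8 and 330 against 5.43, 9.49 and 15.9, with a change of 3.18 ± 0.60 and an adjusted p of 0.0252. Prph was 3.69, 6.18 and 50.4 against 0, 0.407 and 0.895 at 9 months and at or under 0.789 in all 20 libraries at 4 months. No 9-month control library reached the value of 1 that the filter asked for, the highest being 0.959. Prph was thus tested only through its 9-month DBA/2J values, and its call is not independent of that filter.

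Of these 10 genes, Stat3 and Dlx3 passed in each of the 26 fits that left out 1 library. The number of genes called was 4 without DBA/2J library 26, D2-Gpnmb+ library 13 or D2-Gpnmb+ library 14, 6 without DBA/2J library 28 and 109 without DBA/2J library 27. Scaled to total reads, 5 genes were called, all of them among the 10.

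Blocks 1 and 2 were not used in that test and held DBA/2J libraries with high values of the same genes. For all 10 genes, DBA/2J libraries 14 and 16 of block 2 lay above every one of the 9 control libraries. DBA/2J library 3 of block 1 did so for 7 of the 10. Libraries 26 and 28 of block 3 also did so for all 10, but they were in the test that picked these genes. Libraries 3, 14 and 16 are named because they were the highest of their blocks. The share of all tested genes that lay above every control in them was not counted, so their values are no separate support. Nf2, Slit3 and Sec22c exceeded every control in 15, 12 and 11 of the 25 DBA/2J libraries. Stat3 was above the highest control value of 114.1 in 5 of 25 DBA/2J libraries and Serpina3n above 17.46 in 6, and these libraries set the top of the range: in block 2 Stat3 ranged from 29.1 to 202 (median 54.1) and Serpina3n from 1.71 to 51.8 (median 5.15). The block 2 medians lay below the lower control value of Stat3, 55.7, and between the control values of Serpina3n, 3.81 and 14.2. In DBA/2J libraries 14 and 16 the summed Müller glia markers were 2231 and 2222, the lowest of block 2, and the summed microglia markers were 197.6 and 510.8. Their part in these values was not tested.

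**Figure D5:**
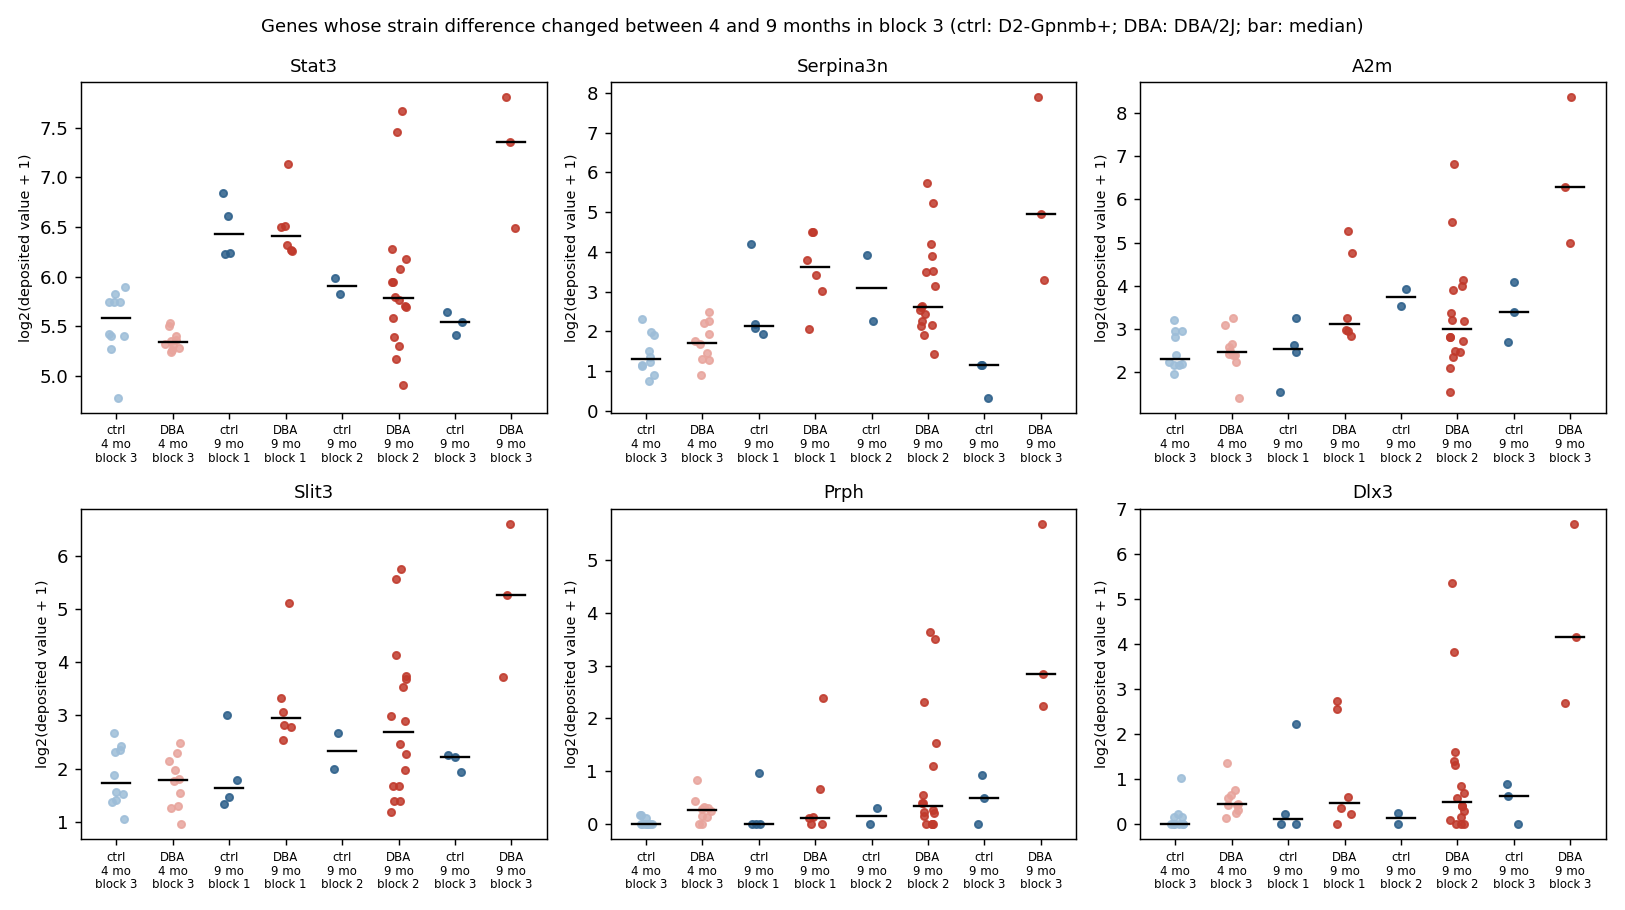
Log2(normalised value + 1) of 6 genes in each library of the 4-month groups (block 3) and of the 9-month groups by block, with a bar at the median. The 3 DBA/2J libraries of block 3 lie above all 9-month controls of that block, and a few DBA/2J libraries of blocks 1 and 2 reach similar values while most do not.

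Injury and immune lists had 0 members called in blocks 2 and 3, where no tested gene was called. Their block 1 counts stand beside 4.46% of all tested genes higher and 7.42% lower there, and some lie near those shares. Gliosis and acute phase genes had medians of -0.02, 0.31 and 0.81, with 2 of 22 higher and 5 lower in block 1 and 19 higher in value in block 3, and the block 3 median was 0.36 without DBA/2J library 26. Complement genes had medians of 0.05, 0.53 and 0.35 over 15 tested, with 0 higher and 1 lower in block 1 and 12 higher in value in each of blocks 2 and 3. On blocks 1 and 3 together 3 gliosis and acute phase genes were higher and 2 lower, and 2 complement genes were higher and 0 lower. Over all tested genes that fit had 2.28% higher and 5.31% lower. Serping1, the inhibitor of the first complement component, was 7.38, 11.7 and 46.0 against 1.55, 2.85 and 3.84 in block 3, without overlap, and differed by 2.24 ± 0.57 (SE) there, by 0.43 ± 0.27 in block 1 and by 0.79 ± 0.46 in block 2. Interferon response and MHC class I genes had medians of -0.18, 0.38 and 0.38 with 0 of 27 called in any block and 24 higher in value in block 2. Atf3, a stress transcription factor, was 2.32, 11.3 and 28.9 against 0.511, 0.518 and 2.03 in block 3, without overlap, and differed by 1.5 ± 0.38 on blocks 1 and 3 with an adjusted p of 0.0165. Axon injury and DLK-JNK genes had medians of -0.03, -0.08 and 0.02, with 1 of 21 higher and 4 lower in block 1.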

How the data were processed

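RNA sequencing had been done on sorted retinal cells. The deposited values are signal, read counts per gene divided by a factor per library, made by the authors; per the submitters' processing notes TopHat2 2.0.7, Bowtie2 2.0.6, HTSeq and mm10 were used, with no order given. How the factors were derived is not given in the sources used here. Whole reads were recovered by dividing by the value of 1 read: 100% of positive values came within 0.05 of a whole number in the least exact library. Of 15171 rows, 22 named by dates were left out.

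The 13755 genes that reached a value of 1 in 9 or more of the 34 libraries were tested with limma 3.58.1 in R 4.3.3 on log2(value + 1), Benjamini-Hochberg adjusted over all of them, and a log2 difference is DBA/2J minus D2-Gpnmb+ on that scale. Fits were pooled, with the column block as a covariate, within blocks, for strain by block, and for strain by age within block 3. edgeR 4.0.16 and DESeq2 1.42.0 on recovered reads, other scalings, filters and pseudocounts, and leaving out each library were alternatives; the fit on blocks 1 and 3 was taken further after the data had been seen. Named genes are the 10 largest changes per direction or the 10 smallest p per fit, 4 per list in 2 fits, 15 with the same direction in all blocks, and the smallest p of both interactions, from 42 lists. Members and lists were chosen with earlier results of these data known. The scripts were tested on simulated data. The closest 2 libraries differed by a chi-squared of 11.2 per gene, so no library repeated the reads of another. Each was counted as 1 replicate, although whether each came from its own mouse is not known.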

Additional observations from a re-analysis of the deposited data

Results flagged for a closer look

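Among the 9 control libraries at 9 months, 3 values of the 64 genes examined stood far from the rest. This was measured by the gap to the nearest library as a share of the whole range. The limit used is one that chance alone exceeds in about 1 in 20 groups. Over 64 genes that rate would give about as many values as were found. Gpnmb was lowest in D2-Gpnmb+ library 1, at 11.9 with the next at 38.9. Xist was lowest in D2-Gpnmb+ library 8, at 7.93 with the next at 4880. Dlx3 was highest in D2-Gpnmb+ library 5, at 3.65 with the next at 0.863.

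The test of whether the strain difference depended on the column block called Cacna1f, with an adjusted p of 0.0474 in limma, in 16 of 34 fits with 1 library left out and not when scaled to total reads. Within block 3 the strain difference changed from 4 to 9 months for Stat3 (adjusted p 8.96e-04), Dlx3 (0.0059), Slit3 (0.00967), Prph (0.00967), Serpina3n (0.00967), A2m (0.0252), Nf2 (0.0252), Mpp6 (0.0252), Fam78b (0.0254) and Sec22c (0.0324), all toward higher values in DBA/2J at 9 months.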

How the results depend on the processing

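None of the calls of named genes in the pooled, block-covariate and block 1 fits reversed its direction under the alternatives run for it; other called genes were not followed singly. Pooled calls (3) became 11 with edgeR, 255 with DESeq2, 10 with a value of at least 5 required, 0 when scaled to total reads (which moved the median of all genes to -0.126) and 0 without D2-Gpnmb+ libraries 1 and 8, and ranged from 0 to 56 with 1 library left out. With the block as a covariate the share of tested genes called, 0.0145%, became 0.451% with DESeq2, 0% when scaled to total reads, 0.0066% with no filter on low values, 0.00727% without D2-Gpnmb+ libraries 1 and 8, 0% without block 1 and 7.59% without block 2, and ranged from 0% to 0.225% with 1 library left out. With 1 library left out, block 1 gave 1053 to 1605 calls, block 2 gave 0 to 1 and block 3 gave 0 to 14. Block 3 gave 1 call when scaled to total reads, which moved its median over all genes to 0.185 and that of block 2 to -0.162. The strain by block test gave 2 calls with edgeR and 0 to 15 with 1 library left out, and when scaled to total reads its 1 call was not Cacna1f. The strain by age test gave 5 calls when scaled to total reads and 4 to 109 with 1 library left out. On blocks 1 and 3 the number of calls became 492 without D2-Gpnmb+ library 1 and DBA/2J library 26 and ranged from 584 to 1273 with 1 library left out; these alternatives were added after seeing the data, as were those without libraries 1 and 8. The cause of these shifts was not tested. No paired analysis was possible because the column numbers that both strains share tie to no animal, litter or day in the labels. Block 2 holds 2 controls, which limits what it can show.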

Other observations

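Other lists held block 1 calls, to be read against 4.46% of all tested genes higher and 7.42% lower there. Of 22 glycolysis genes 4 were higher and 1 lower, with median log2 differences of 0.24, -0.13 and 0.25 in the 3 blocks. Hk2, a hexokinase, and Ldha, a lactate dehydrogenase subunit, differed by 1.67 ± 0.27 (SE) and 0.79 ± 0.18 in block 1, with limma adjusted p values of 4.7e-04 and 0.00579. Of 26 orthologs of human glaucoma genes 1 was higher and 6 lower, with a median of -0.17 in block 1: Gas7 differed by 1.36 ± 0.23, and Efemp1, a matrix glycoprotein, and Cyp1b1, a cytochrome P450, by -1.38 ± 0.27 and -1.04 ± 0.25. Vegfa, the vascular growth factor, differed by -0.92 ± 0.22, among 20 hypoxia response genes with 2 higher and 3 lower. Psat1, an enzyme of serine synthesis, differed by -1.2 ± 0.20, among 31 stress response genes with 1 higher and 4 lower.

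Of 35 lysosome and autophagy genes 0 were higher and 5 lower in block 1, with a median of -0.36, and of 29 antioxidant genes 0 were higher and 4 lower. In block 1, 0 of 31 proteasome, 0 of 19 circadian clock and 0 of 27 mitochondrial dynamics genes were called in limma; 29 of the 31 proteasome genes were higher in value in block 3, with a median of 0.20. Astrocyte markers had 1 of 7 lower, and endothelial and pericyte markers 1 of 21 higher and 2 lower, in block 1. Over all tested genes the block 1 shares were 4.46% higher and 7.42% lower.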
